A study of Homo sapiens with 8 samples.

Results

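The genes described here are 40 genes of transport between the endoplasmic reticulum and the Golgi apparatus, out of 58302 genes in the count table. The rule that lists them uses known functions and no measured value, but the list was proposed with earlier results of these data known. Each was found in the table by matching its Ensembl identifier to its GENCODE 44 symbol. The list held 11 genes of the COPII coat, 8 of the COPI coat, 4 ARF GTPases, 14 cargo receptors and 3 Golgi tethers. All 40 had reads, and 37 passed the filter on low counts and were tested. SEC24C, COPG2 and ARF5 did not pass it.

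Newly made secretory proteins leave the endoplasmic reticulum in vesicles shaped by the COPII coat. The GTPase SAR1 starts that coat, SEC23 and SEC24 form its inner layer and pick cargo, and SEC13 with SEC31 forms its outer cage. COPI vesicles, whose coat is recruited by ARF GTPases, run back from the Golgi apparatus and return escaped residents and empty receptors. Receptors that span the membrane, such as the TMED, KDELR and LMAN proteins and SURF4, link cargo to these coats, and long coiled-coil tethers catch the vesicles at the Golgi apparatus.

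The study profiled RNA from A549, an established human lung adenocarcinoma cell line, after transient transfection with an siRNA against APEX1, the gene for the DNA repair enzyme APE1, or with a scrambled control siRNA. The samples were 4 libraries with the label siAPEX1 and 4 with the label siCTRL, from cells that shared the line and the transfection and differed, by label, in the siRNA alone. The kit was one for small RNA, with changes made to also catch primary miRNA transcripts, so a read on a coding gene was a piece of its transcript. The study calls the libraries of a group biological replicas, and the labels do not say whether they came from separate cultures, so p-values measure the spread between these libraries, part of which may be technical. APEX1 itself had 51, 61, 64 and 47 counts in the siCTRL libraries and 21150, 19470, 27916 and 20767 in the siAPEX1 libraries. The counts were thus higher under the label of an siRNA meant to lower this transcript. A count cannot say whether a read came from the APEX1 transcript or from the transfected siRNA, so every direction below is that of the libraries as labelled.

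Between 1639796 and 1949886 reads were counted on genes in the libraries labelled siCTRL and between 1348386 and 1619500 in those labelled siAPEX1, so depth and label cannot be told apart. All 11 genes listed as markers of A549 were detected, 4 keratins, EPCAM, VIM, which is also a mesenchymal marker, and 5 enzyme genes, with a summed level of 1745.5 to 1958 CPM (counts per 1000000 counts of the scaled library) in the libraries labelled siCTRL and 1446 to 1562 in those labelled siAPEX1. KRT8, KRT18, KRT7, KRT19, VIM and NQO1 passed the test as lower, with KRT19 lowest at -2.31 on the log2 scale and VIM nearest to 0 at -0.52, AKR1B10 at 0.83 and AKR1C2 at 0.44 as higher, and EPCAM was not tested. The part of these markers in the members' values was not tested. The leukocyte, endothelial, erythroid and hepatocyte genes listed had at most 1 count each over all libraries, and the most of a fibroblast gene was 37.

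In the libraries labelled siAPEX1, 8 of the 14 cargo receptors and 4 of the 7 COPI genes tested were lower, SEC13 alone of the 10 COPII genes was lower, and the tether GOLGA4 was higher. COPII genes other than SEC13 and SEC31A had standard errors of 0.211 to 0.351, and receptors other than KDELR3 0.110 to 0.185. A change of the same size thus passed less easily in most COPII genes. Of the 37 genes tested, 14 were lower and 1 was higher at an adjusted p of at most 0.05 in edgeR's quasi-likelihood test, and 22 did not pass. Of all 5368 genes tested, 15.8% were lower and 15.9% higher by the same rule, and of the 4870 protein-coding genes among them 15.9% and 12.5%. Lower were SEC13 of the COPII coat, COPA, COPG1, COPE and ARCN1 of the COPI coat, ARF3, and the receptors TMED2, TMED3, TMED9, KDELR1, KDELR3, SURF4, LMAN1 and LMAN2. The log2 fold changes ran from -1.88 to 0.71 with a median of -0.32, against a median of -0.00 for all genes tested and -0.03 for the protein-coding genes. In bulk RNA, fewer cells and less RNA per cell cannot be told apart.

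A change of at least 1 on the log2 scale was reached by KDELR3 and SURF4 among the lower genes, and by no higher gene, where the background was 5.68% lower and 3.6% higher over all genes tested and 5.75% and 2.69% over protein-coding genes. In 11 of the 37 genes all 4 libraries labelled siAPEX1 lay below all 4 labelled siCTRL, and in 0 above, against 14.9% and 14% of all genes tested and 15.2% and 10.8% of protein-coding genes. The number of calls depended on the libraries kept, also over all genes. Without siAPEX1 replicate 3 or without siAPEX1 replicate 4, 9 genes were lower in place of 14. Of all genes tested, 12.2% and 12.5% were lower in these fits, in place of 15.8%. SEC13, COPA, ARCN1, TMED2, TMED9, KDELR1 and SURF4 stayed lower in all 17 alternative fits. KDELR3 did so in the 16 that tested it, but its siAPEX1 counts were all below the filter's count of 10. It could thus be called only as lower, and its direction in these fits is no sign of robustness.

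**Figure D1:**
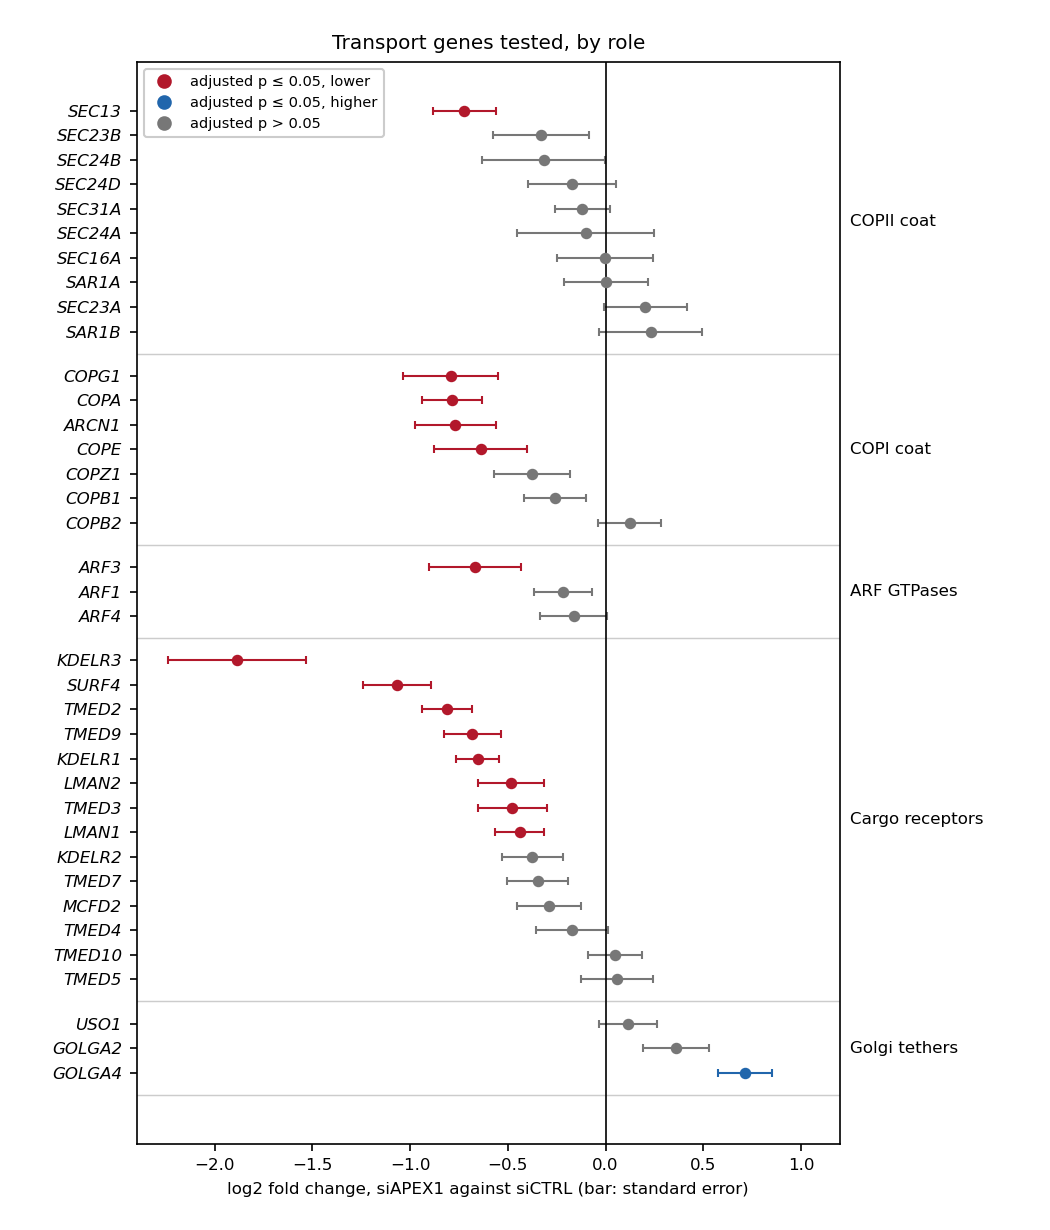
Log2 fold change of the 37 genes tested, siAPEX1 against siCTRL (horizontal axis, bar: standard error), grouped by role. Red points passed the test as lower, the blue point as higher and grey points did not pass; 12 of 14 cargo receptors and 6 of 7 COPI genes lie left of 0, and the COPII genes other than SEC13 lie between -0.33 and 0.23.

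The promoters of these genes were read because many members moved together; the motifs were chosen after the values were seen. RefSeq promoter windows (GRCh38.p14, 250 bases before to 50 after the start) were held for 33 of the 40 genes. SEC24D, ARF4, TMED4, TMED9, KDELR2, GOLGA4 and USO1 had no entry. The letters TGACGTGG, known as the unfolded protein response element (UPRE), which ATF6 and XBP1 bind, stood on either strand in 8 of the 33 genes (24.2%), against 0.927% of the 27305 genes with a promoter and 0.729% of all 35116 promoters. The letters ACGTGGC, the core of the Golgi apparatus stress response element (GASE), stood in 15 (45.5%), against 3.95% of genes and 3.22% of promoters. Among the 4042 protein-coding genes tested that had a promoter, the shares were 1.76% and 6.51%. The 2 motifs share the letters ACGTGG and can overlap, as they did in ARF1, KDELR3, SEC16A, SEC23A and SEC24A. The endoplasmic reticulum stress element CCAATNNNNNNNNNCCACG stood in 0 of 33 and in 0.0916% of genes. Windows of 30 bases follow for genes that were lower, on the gene's strand, with the match in capitals (GCCACGT and CCACGTCA are the same motifs on the other strand), to show where the match lies in each window:
SEC13 (chr3:10321072-10321101, minus strand): ccgccgggagctGCCACGTccgagacctgg
COPA (chr1:160343227-160343256, minus strand): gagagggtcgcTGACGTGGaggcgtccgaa
COPG1 (chr3:129249586-129249615, plus strand): gagcgctgggcgACGTGGCcagtcggggcc
ARCN1 (chr11:118572379-118572408, plus strand): ttccggttgaagACGTGGCttggggccgcc
TMED2 (chr12:123584445-123584474, plus strand): gtgcctccctttACGTGGCagctgcgggag
TMED3 (chr15:79311128-79311157, plus strand): agctccgctggtGCCACGTctatcccctta
KDELR3 (chr22:38468038-38468067, plus strand): cggccgccctgGCCACGTCAccgcccggcc
SURF4 (chr9:133376096-133376125, minus strand): aaggcttggcctACGTGGCagccgctggag

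Genes that did not pass the test held the same letters, of which 4 windows are shown for contrast, 3 of COPII genes and 1 of the COPI gene COPB2:
SEC23A (chr14:39103221-39103250, minus strand): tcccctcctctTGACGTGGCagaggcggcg
SEC24A (chr5:134648595-134648624, plus strand): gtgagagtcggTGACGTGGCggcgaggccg
SEC31A (chr4:82891191-82891220, minus strand): gcggctgcggctGCCACGTtggaacggaac
COPB2 (chr3:139389825-139389854, minus strand): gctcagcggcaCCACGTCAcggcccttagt

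By role, the GASE letters stood in 7 of 10 COPII genes with a promoter, 3 of 8 COPI genes, 1 of 3 ARF genes and 4 of 11 cargo receptors. The UPRE letters stood in 3, 3, 1 and 1 of them. Of the 14 tested genes with GASE letters 7 were lower, at a median of -0.35 on the log2 scale, and of the 16 without 6 were lower, at a median of -0.34. Of the 8 tested genes with UPRE letters 2 were lower, with a median of -0.16, against 11 of 22 and -0.41 without. A match is a description of the letters and not of a factor bound there.

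**Figure D2:**
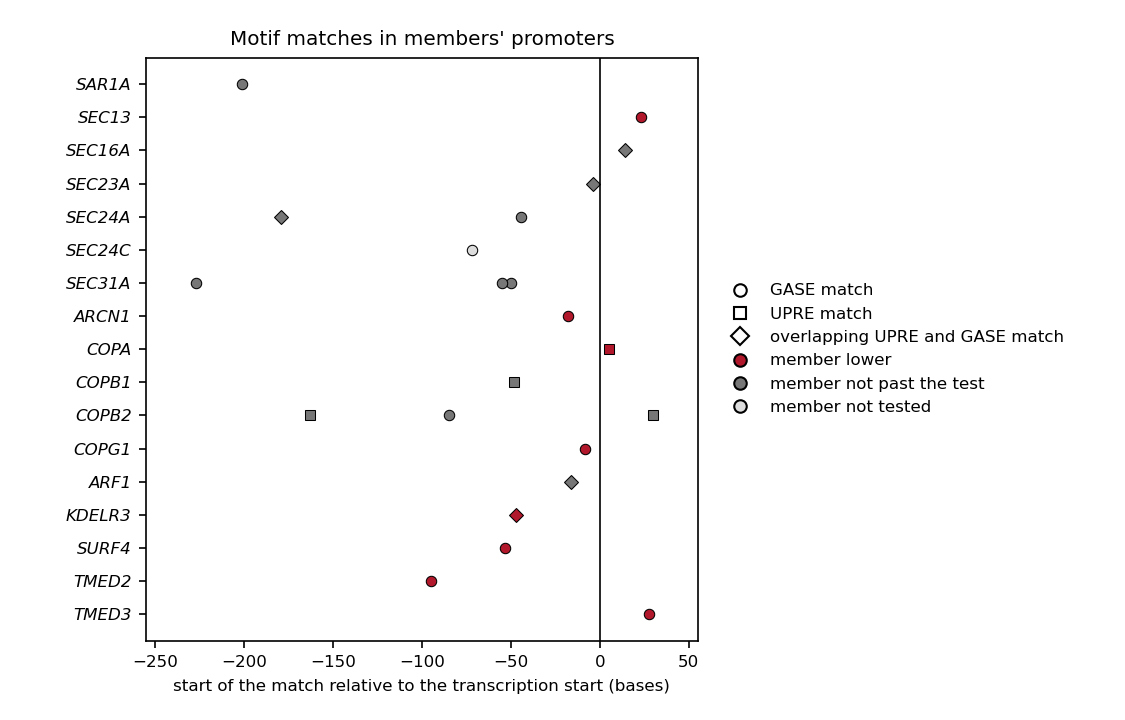
Start of each UPRE or GASE match relative to the transcription start (bases, horizontal axis) in the promoters of 17 genes of the list, with 22 distinct sites. Symbols give the motif and colours the result of the test; sites of lower genes (red) lie between -95 and 28 bases, and sites of genes that did not pass or were not tested spread from -227 to 30.

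Of the COPII coat, 10 of 11 genes were tested, 1 was lower, 0 were higher and the median log2 fold change was -0.11. At an unadjusted p below 0.05 there were also 1 lower and 0 higher, against 20.5% lower and 20.5% higher of all genes tested. DESeq2 also called 1 lower and 0 higher, against 10.1% and 10.8% of all genes. SEC13 (chr3:10293131-10321112, GRCh38, minus strand), a subunit of the outer cage, had levels of 35.2, 30.03, 34.8 and 33.8 CPM in the libraries labelled siCTRL and 23.9, 20.3, 20.2 and 16.7 in those labelled siAPEX1. The groups did not overlap, and SEC13 fell by 0.72 on the log2 scale (SE 0.161, edgeR adjusted p = 0.000475). SEC13 is also a part of the nuclear pore, and 1 annotated pseudogene carries its name. SEC31A, its partner in the cage, had 36.2, 33.9, 38.9 and 34.9 CPM against 37.1, 27.6, 32.4 and 35.7. These levels overlapped, and the log2 fold change was -0.12 (SE 0.141, edgeR adjusted p = 0.57).

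The ratio of SEC13 to SEC31A counts within a library does not depend on how libraries are scaled. It was 0.972, 0.886, 0.893 and 0.968 in the libraries labelled siCTRL and 0.644, 0.735, 0.622 and 0.467 in those labelled siAPEX1, or 0.930 ± 0.0469 against 0.617 ± 0.112 (SD, n = 4 each). This pair was picked after its values were seen, so the ratio is given with no test. Summed over the coat, COPII genes had 163.65 ± 8.65 CPM in the libraries labelled siCTRL and 147 ± 10.01 in those labelled siAPEX1. Without SEC13 the sums were 130.2 ± 7.45 and 126 ± 7.83. SEC13 was left out after its fall was seen, which by itself brings the sums closer. They were not tested and do not show that the rest of the coat stayed the same. With the trend on GC content and length taken out in each library (the offset below, added after the values were seen), SEC13 was at -0.45 (edgeR adjusted p = 0.031).

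The inner coat and its GTPase did not pass the test. SEC23A had 26, 29, 36 and 32 counts in the libraries labelled siCTRL and 31, 17, 18 and 24 in those labelled siAPEX1, with a log2 fold change of 0.20 (SE 0.211). Its paralog SEC23B had 28, 21, 26 and 24 against 13, 10, 18 and 9, with a log2 fold change of -0.33 (SE 0.245). The signs of the pair were opposite, and neither value exceeded 2 standard errors.

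SEC24, the subunit that binds cargo, comes from 4 genes. SEC24A had 10, 13, 19 and 7 counts against 3, 5, 11 and 10, and SEC24B had 12, 20, 12 and 15 against 9, 8, 6 and 7. SEC24C had 12, 10, 14 and 8 against 8, 6, 11 and 7, and SEC24D had 23, 33, 33 and 21 against 17, 14, 18 and 13. After scaling, the levels of all 4 overlapped between the groups. The log2 fold changes of SEC24A, SEC24B and SEC24D were -0.10, -0.32 and -0.17. Counts this low leave wide errors (SE 0.351 for SEC24A), so that a change as large as that of SEC13 would be only about 2 standard errors of SEC24A.

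SAR1A, the GTPase that starts the coat, had 30, 34, 39 and 18 counts against 16, 18, 26 and 17, and SAR1B had 23, 14, 18 and 16 against 11, 17, 16 and 9. Their log2 fold changes were 0.00 (SE 0.216) and 0.23 (SE 0.263). SEC16A, the scaffold of the exit sites, had a log2 fold change of -0.00 (SE 0.244). SEC24A and SAR1B lie head to head and share 389 bases of exon on opposite strands, so reads there may be left out or counted for either gene. The name of SAR1A is carried by 4 annotated pseudogenes, and reads that map to several of these places are left out of the counts.

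Of the COPI coat, 7 of 8 genes were tested, 4 were lower, 0 were higher and the median log2 fold change was -0.64. The numbers at an unadjusted p below 0.05 were also 4 and 0, and DESeq2 called 2 and 0. By these 2 rules 20.5% and 10.1% of all genes tested were lower. COPA (chr1:160288594-160343566, minus strand), the alpha subunit that binds retrieval signals on cargo, had 45.8, 40.7, 53.3 and 39.8 CPM in the libraries labelled siCTRL and 22.2, 33.3, 23.1 and 26.2 in those labelled siAPEX1. It fell by 0.79 on the log2 scale (SE 0.152, edgeR adjusted p = 6.95e-05), with no overlap between the groups. ARCN1, the delta subunit, had 19.1, 17.9, 19.9 and 21.0 CPM against 10.7, 8.93, 13.0 and 12.7. It fell by 0.77 (SE 0.207, edgeR adjusted p = 0.00343), again with no overlap.

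COPG1, the gamma subunit, had 16.6, 20.3, 20.4 and 20.5 CPM against 19.8, 13.8, 5.05 and 7.15. The mean was lower, by 0.79 on the log2 scale (SE 0.244, edgeR adjusted p = 0.0107), but siAPEX1 replicate 1 lay among the siCTRL libraries, and the adjusted p was 0.125 without siAPEX1 replicate 3, 0.0783 without siAPEX1 replicate 4 and 0.0501 with DESeq2. COPE, the epsilon subunit, had 19.6, 12.6, 16.2 and 12.7 CPM against 6.59, 12.2, 10.8 and 9.53, and fell by 0.64 (SE 0.239, edgeR adjusted p = 0.0368). Its groups did not overlap, but the lowest siCTRL library and the highest siAPEX1 library were close, and the call was lost in 9 of 16 alternative fits. Among these the adjusted p was 0.135 and 0.0748 without siCTRL replicate 1 or 3, and 0.170, 0.0621 and 0.0899 without siAPEX1 replicate 1, 3 or 4. It was 0.143 with DESeq2, and COPE was at -0.30 (adjusted p = 0.380) with the offset.

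The other COPI subunits did not pass. COPB1, the beta subunit, had the most counts after COPA, with 34.7, 29.5, 38.9 and 49.3 CPM against 28.8, 24.3, 36.8 and 35.7 and a log2 fold change of -0.26 (SE 0.159). COPZ1, the zeta subunit, was at -0.38 (SE 0.195) and COPB2, the beta prime subunit, at 0.12 (SE 0.163). COPB2 was the only COPI gene tested with a value above 0, and 34.1% of its annotated exon bases overlap MRPS22 on the other strand, which had 47 counts in all. COPG2, the paralog of COPG1, had 8, 4, 3 and 0 counts against 4, 1, 2 and 1, and was not tested. Its pooled ratio after scaling was 0.840, with a 95% interval of 0.308 to 2.11 that covers counting error only.

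COPZ1 carries the miRNA gene MIR148B (chr12:54337216-54337314, plus strand) in an intron on its own strand. The count of this gene does not separate mature from precursor reads or from reads of the host intron. Its mature forms, from RefSeq and with the seed (bases 2 to 8) in capitals, are:
hsa-miR-148b-5p (chr12:54337240-54337261): aAGUUCUGuuauacacucaggc
hsa-miR-148b-3p (chr12:54337278-54337299): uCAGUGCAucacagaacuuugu

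MIR148B had 59, 76, 63 and 45 counts in the libraries labelled siCTRL and 14, 22, 40 and 20 in those labelled siAPEX1, and fell by 0.68 on the log2 scale (SE 0.192, edgeR adjusted p = 0.00515). After scaling, siAPEX1 replicate 3 stood at 28.8 CPM, above the lowest siCTRL library at 24.9, so the groups overlapped. Without siAPEX1 replicate 1 the adjusted p was 0.0557. The gene's counts do not tell the 2 arms apart. MIR576 in an intron of SEC24B had 12, 19, 9 and 4 counts against 5, 8, 10 and 7 and did not pass the filter, and MIR6826 in COPG1 and MIR3620 in ARF1 had 0 counts.

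Of the ARF GTPases, which load COPI onto Golgi membranes, 3 of 4 were tested and 1 was lower. ARF3 had 22.6, 12.6, 18.1 and 15.5 CPM in the libraries labelled siCTRL and 13.2, 13.0, 9.37 and 7.94 in those labelled siAPEX1. It fell by 0.67 on the log2 scale (SE 0.233, edgeR adjusted p = 0.0246), and siCTRL replicate 2 lay inside the range of the siAPEX1 libraries. The call was lost in 6 of the 17 alternative fits. Among these the adjusted p was 0.113 and 0.0552 without siCTRL replicate 1 or 3, and 0.0955 and 0.118 without siAPEX1 replicate 3 or 4. It was 0.106 with DESeq2 and 0.0576 with the offset. ARF1, with the most counts of the family, had 47.3, 39.7, 35.2 and 39.8 CPM against 44.5, 35.7, 33.2 and 26.2. The levels overlapped and the log2 fold change was -0.22 (SE 0.147, edgeR adjusted p = 0.278). ARF4 had 33.2, 22.8, 28.7 and 26.0 CPM against 28.0, 16.2, 27.4 and 27.0, with a log2 fold change of -0.16 (SE 0.172). ARF5 had 2, 4, 2 and 5 counts against 4, 1, 2 and 3 and was not tested. Annotated pseudogenes carry the names of ARF1 (3) and ARF4 (4).

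Of the 14 cargo receptors all were tested, 8 were lower, 0 were higher and the median log2 fold change was -0.46. At an unadjusted p below 0.05 there were 10 lower and 0 higher, and DESeq2 called 6 and 0, where 20.5% and 10.1% of all genes tested were lower. The 8 lower receptors were 3 of the 7 TMED genes, 2 of the 3 KDELR genes, SURF4, and both LMAN genes.

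The KDEL receptors bind residents of the endoplasmic reticulum, such as chaperones, in the Golgi apparatus and send them back in COPI vesicles. KDELR1 (chr19:48382575-48391551, minus strand) had 114, 106, 108 and 103 CPM in the libraries labelled siCTRL and 73.3, 77.9, 66.3 and 56.4 in those labelled siAPEX1. The groups stood well apart, and KDELR1 fell by 0.65 on the log2 scale (SE 0.110, edgeR adjusted p = 7.51e-06). With the offset it was at -0.38 (adjusted p = 0.00225). Per length it had the highest level of the 40 genes, at 69.5 CPM per kilobase of transcript in the siCTRL libraries. KDELR3 (chr22:38468078-38483447, plus strand) had 23, 18, 25 and 17 counts against 1, 3, 5 and 5. It was the largest change of the list, at -1.88 on the log2 scale (SE 0.353, edgeR adjusted p = 4.46e-05), and it rested on few reads. Its siAPEX1 counts were all below the filter's count of 10, so it passed the filter through the siCTRL libraries alone. A gene with such counts could be called only as lower. Pooled, 83 counts stood against 14, a ratio of 0.266 after scaling with a 95% interval of 0.139 to 0.471 that covers counting error only.

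KDELR2 had 52.8, 40.2, 47.3 and 28.8 CPM against 33.8, 30.8, 30.3 and 36.5. Of the siCTRL libraries replicate 4 alone lay below the siAPEX1 libraries, and the log2 fold change of -0.37 (SE 0.155) had an edgeR adjusted p of 0.061. Without siCTRL replicate 4 KDELR2 was called, at -0.51 (adjusted p = 0.00675). As a share of all KDELR counts, KDELR3 made up 6.497%, 5.63%, 6.94% and 6.67% in the libraries labelled siCTRL and 0.763%, 2.19%, 3.60% and 4.10% in those labelled siAPEX1. This share was chosen after KDELR3 was seen to change and has no test.

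SURF4 (chr9:133361450-133376166, minus strand), a receptor for soluble cargo leaving in COPII vesicles, had 30.2, 34.4, 41.2 and 37.6 CPM in the libraries labelled siCTRL and 17.3, 13.8, 14.4 and 23.0 in those labelled siAPEX1. It fell by 1.07 on the log2 scale (SE 0.175, edgeR adjusted p = 4.85e-06), with no overlap. LMAN1, the lectin that carries blood clotting factors out of the endoplasmic reticulum, had 78.4, 77.5, 92.7 and 67.0 CPM against 56.0, 72.2, 55.5 and 50.04. It fell by 0.44 (SE 0.123, edgeR adjusted p = 0.00504), with siAPEX1 replicate 2 above siCTRL replicate 4 and an adjusted p of 0.0515 without siAPEX1 replicate 4. MCFD2, the soluble partner of LMAN1, did not pass, at -0.29 (SE 0.164, edgeR adjusted p = 0.186). LMAN2, a related lectin, ranged from 28.3 to 35.2 CPM against 14.8 to 27.0 and fell by 0.48 (SE 0.167, edgeR adjusted p = 0.0232). Its adjusted p was 0.066 without siCTRL replicate 1, and 0.182 and 0.0681 without siAPEX1 replicate 1 or 3. It was 0.108 with DESeq2, and LMAN2 was at -0.13 (adjusted p = 0.613) with the offset.

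The TMED proteins, or p24 proteins, cycle in both kinds of vesicle and carry lipid-anchored cargo. TMED2 (chr12:123584533-123598582, plus strand) had 82.5, 60.5, 67.7 and 63.6 CPM in the libraries labelled siCTRL and 43.6, 37.3, 38.2 and 37.3 in those labelled siAPEX1. It had the lowest p of the list and fell by 0.81 on the log2 scale (SE 0.129, edgeR adjusted p = 3.09e-06). TMED9 had 46.3, 48.4, 45.0 and 40.4 CPM against 30.5, 32.5, 29.6 and 19.9, and fell by 0.68 (SE 0.146, edgeR adjusted p = 0.00029), or -0.45 (adjusted p = 0.0136) with the offset. Neither gene's groups overlapped.

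TMED3 ranged from 27.1 to 32.7 CPM against 13.7 to 26.4 and fell by 0.48 (SE 0.175, edgeR adjusted p = 0.0334). Its adjusted p was 0.0846 and 0.0532 without siCTRL replicate 1 or 3, and 0.286 and 0.116 without siAPEX1 replicate 3 or 4. It was 0.139 with DESeq2 and 0.0506 with TMM factors from protein-coding genes, and TMED3 was at -0.14 (adjusted p = 0.589) with the offset. TMED10, which pairs with TMED2 in the same complex, did not pass, at 0.05 (SE 0.138, edgeR adjusted p = 0.825), with 40.2, 39.2, 42.2 and 31.0 CPM against 45.3, 36.5, 35.3 and 42.1. TMED4, TMED5 and TMED7 were at -0.17, 0.06 and -0.35 and did not pass. The differences between these family members were not tested. Of annotated pseudogenes, 2 carry the name of TMED10 and 1 that of TMED2.

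**Figure D3:**
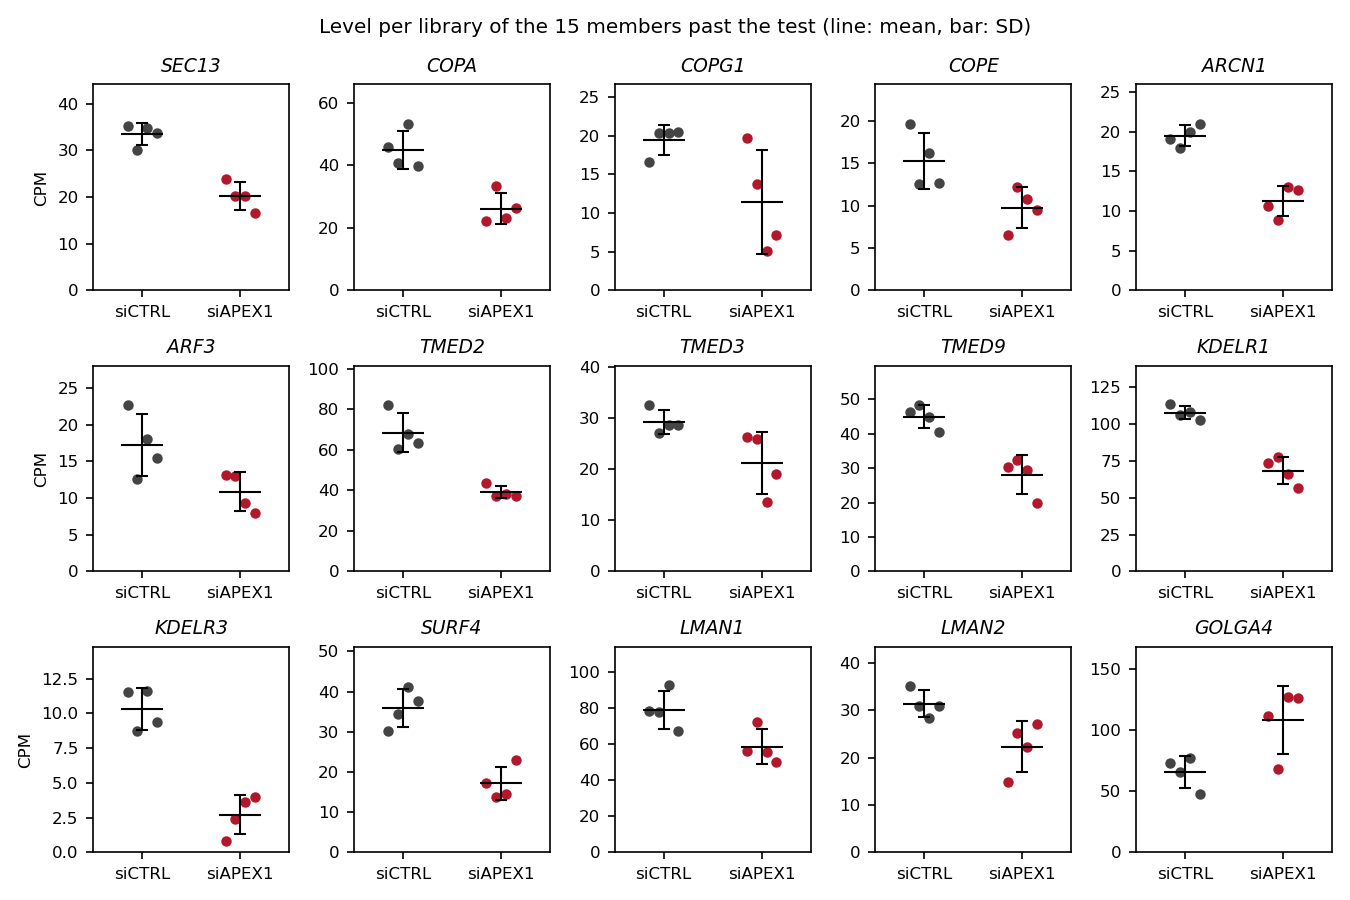
Level in CPM (vertical axis, from 0) of the 15 genes past the test in each of the 4 libraries labelled siCTRL (grey) and siAPEX1 (red), with the mean (line) and SD (bar). TMED2, SURF4, KDELR1 and COPA separate with a gap, while COPG1, ARF3, LMAN1 and GOLGA4 overlap.

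The Golgi tethers went the other way or did not pass. GOLGA4, also known as golgin-245, a tether of the trans side, had 72.9, 65.4, 77.4 and 47.6 CPM in the libraries labelled siCTRL and 111, 68.2, 127 and 126 in those labelled siAPEX1. It rose by 0.71 on the log2 scale (SE 0.138, edgeR adjusted p = 7.32e-05), although siAPEX1 replicate 2 lay inside the siCTRL range. With no scaling beyond library size the value was 0.37 (adjusted p = 0.0236). GOLGA2, or GM130, on the cis side, was at 0.36 (SE 0.170, edgeR adjusted p = 0.103; 0.0224 without siCTRL replicate 4), and 9 annotated pseudogenes carry its name. USO1, or p115, which bridges vesicles to GOLGA2, was at 0.12 (SE 0.148), and at -0.23 with library size alone.

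Set side by side within each library, the groups of genes shifted against each other. COPI counts per COPII count were 1.13, 1.06, 1.10 and 1.22 in the libraries labelled siCTRL and 0.860, 1.04, 0.813 and 0.983 in those labelled siAPEX1. Cargo receptor counts per COPII count were 3.65 ± 0.126 against 2.92 ± 0.312, and Golgi tether counts per COPII count 0.739 ± 0.0438 against 1.18 ± 0.207 (SD, n = 4 each). In all 3 ratios the groups did not overlap. Cargo receptor counts per COPI count were 3.25 ± 0.242 against 3.17 ± 0.0586, and these overlapped. The ratios are descriptions of sums in which the genes with the most reads weigh most, and they were not tested. Among the tethers that gene was GOLGA4, with 1087 counts over all libraries, beside 358 for GOLGA2 and 415 for USO1. The trend on GC content and length described below was not taken out of these ratios.

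**Figure D4:**
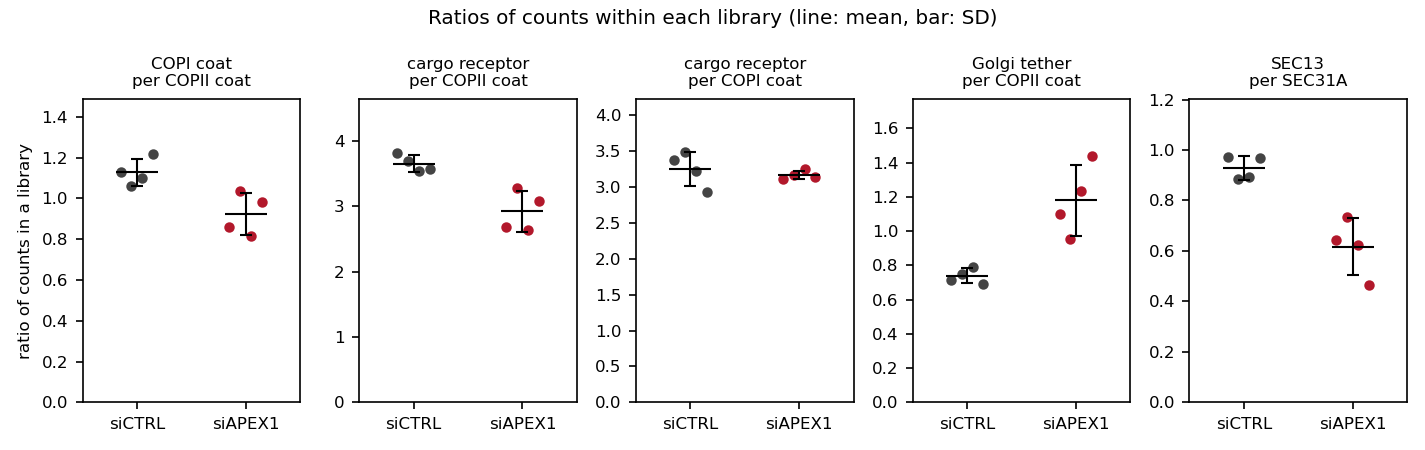
Ratios of raw counts within each library (vertical axes, from 0), for COPI, cargo receptor and Golgi tether counts against COPII or COPI counts and for SEC13 against SEC31A, with the mean (line) and SD (bar) of 4 libraries labelled siCTRL (grey) and 4 labelled siAPEX1 (red). Cargo receptors per COPI count are the panel in which the groups overlap, at 2.92 to 3.48 against 3.11 to 3.25.

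None of the 6 planned shares among paralogs passed the test. SEC23A made up 55.3% ± 4.81 of SEC23 counts in the libraries labelled siCTRL and 64.0% ± 10.2 in those labelled siAPEX1 (SD, n = 4 each; two-sided exact permutation p = 0.2). SEC24A and SEC24B together made up 41.2% ± 2.42 and 38.7% ± 5.64 of SEC24 counts, and SAR1A 62.2% ± 8.76 and 59.5% ± 5.93 of SAR1 counts. COPG1 made up 91.4% ± 8.12 and 87.0% ± 7.10 of COPG counts, ARF1 and ARF3 66.3% ± 1.62 and 63.1% ± 8.62 of ARF counts, and KDELR1 67.5% ± 4.15 and 65.6% ± 5.18 of KDELR counts. The adjusted p over the 6 shares was 0.6 for each in the exact permutation test, and the smallest two-sided p that 4 libraries against 4 can give is 0.0286. A single fully separated share would have had an adjusted p of 0.171, so 1 share alone could not pass, and the values are no evidence that shares stayed the same.

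Per length of transcript, levels in the libraries labelled siCTRL ranged from 0.586 CPM per kilobase for COPG2 to 69.5 for KDELR1. TMED2 at 27.0, SEC13 at 24.6, ARF1 at 22.02 and TMED3 at 20.7 followed KDELR1. Within the COPII coat SEC13 at 24.6 stood above SEC31A at 8.37 and SEC23A at 4.002, and within the KDEL receptors KDELR2 at 15.2 and KDELR3 at 6.09 came after KDELR1. In the libraries labelled siAPEX1 KDELR1 was still the highest, at 44.2.

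GC content and length of the transcript moved with the change. Over the 4870 protein-coding genes tested, Spearman's rho of the log2 fold change was -0.231 with GC content and 0.148 with length; over the 37 transport genes it was -0.442 and 0.550, as descriptions of genes that share their libraries. The 14 lower genes had a median transcript of 2545 bases and 52.8% GC, and the 22 that did not pass 4063.5 bases and 43.0%. The COPII genes tested had longer transcripts (median 4690.5 bases) than the COPI genes (3275) and the cargo receptors (2666). The protein-coding genes were also cut into 5 bins of near equal size. Within each bin of GC content the members' median lay below that of all genes in the bin, for example -0.68 (8 members) against -0.11 at 48.8% to 56.1% GC. Within bins of length it did so in all but the longest, where 3 members had a median of 0.23 against 0.08.

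With the trend on GC content and length taken out in each library, an alternative added after the values were seen, 11 genes were lower and 2 higher, 10 of the 11 shared with the 14. Of the 4870 protein-coding genes in that fit, 608 (12.5%) were lower and 675 higher. COPE, ARF3, TMED3 and LMAN2 were lost and TMED7 was gained, and GOLGA2 joined GOLGA4. The medians were then -0.13 for COPII, -0.32 for COPI and -0.36 for the cargo receptors, so the COPI median was about as far below 0 as that of the receptors and nearer to COPII than before. The median of all genes in that fit was 0.03. Less that median, the lists stood at -0.17, -0.36 and -0.40, against -0.11, -0.64 and -0.46 in the main fit.

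**Figure D5:**
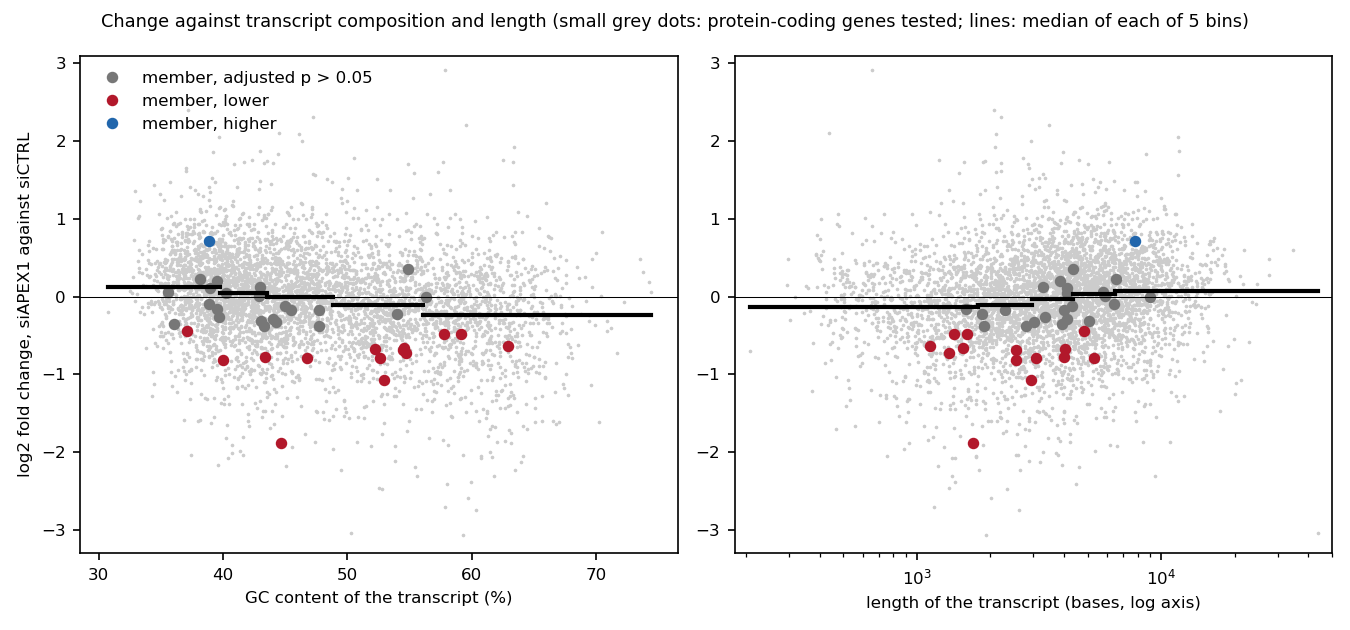
Log2 fold change, siAPEX1 against siCTRL (vertical axis), against GC content in percent (left) and length in bases on a log axis (right) of the transcript, for 4870 protein-coding genes (small grey dots; APEX1 lies above the axis) and the 37 transport genes (large points). Black lines give the median of each of 5 bins of genes, which falls from 0.13 to -0.24 with GC content and rises from -0.13 to 0.08 with length.

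Of 90 other genes of the same route that are no members, 49 were tested, 6 were lower, 4 were higher and 39 did not pass, and the log2 fold changes had a median of -0.12. The shares were 12.2% lower and 8.16% higher, beside 15.8% and 15.9% of all genes tested and 15.9% and 12.5% of protein-coding genes. These gaps amount to few genes and were not tested. Of SNARE and fusion genes, which merge vesicles with their target, 1 of 8 tested was lower. Of coat regulators 2 of 12 were lower and 1 was higher, of other tethers and matrix genes 2 of 15 were higher, and of other receptors 2 of 10 were lower and 1 was higher. ARFGEF2, an exchange factor that activates ARF GTPases, had 30, 24, 23 and 22 counts in the libraries labelled siCTRL and 5, 2, 7 and 10 in those labelled siAPEX1. It fell by 1.38 on the log2 scale (SE 0.306, edgeR adjusted p = 0.000473), and it passed the filter on low counts through the siCTRL libraries. The other lower genes, of which ATF6 is given below, were BET1L, a SNARE, at -0.95, ARFGAP3, which switches ARF off, at -0.89, and, listed with the other receptors and cargo factors, YIF1B at -0.71 and ERGIC1 at -0.36. These 4 were named after their values were seen, and the call was lost in 3 of 16 alternative fits for BET1L, 4 of 16 for ARFGAP3, 10 of 16 for YIF1B and 11 of 17 for ERGIC1. BET1L had 8, 9, 6 and 6 counts in the libraries labelled siAPEX1 and ARFGAP3 had 8, 6, 9 and 5. All were below the filter's count of 10, so both genes passed the filter through the siCTRL libraries and could be called only as lower. The 4 higher genes, named after their values were seen, were the golgins GCC2 at 0.94 and TRIP11 at 0.45, MIA2, a factor for large cargo at exit sites, at 0.90, and the cargo receptor CNIH1 at 0.49. Of these, the call was lost in 10 of 17 alternative fits for TRIP11, 4 of 17 for CNIH1 and 0 of 17 for GCC2 and MIA2. TRIP11 and CNIH1 did not pass with library size as the only scaling, where they stood at 0.11 and 0.14. CNIH1 also did not pass with DESeq2, without a filter or with the GC and length offset. TRIP11 did not pass when any of 5 single libraries was left out (edgeR adjusted p 0.0595 to 0.128).

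Transcription factors known for secretory pathway genes were counted with these. ATF6, which is cleaved in the Golgi apparatus to become active, had 29, 31, 33 and 39 counts against 13, 9, 13 and 5, without overlap after scaling. It fell by 1.06 on the log2 scale (SE 0.254, edgeR adjusted p = 0.00109). XBP1 had 52, 51, 58 and 38 counts against 29, 34, 34 and 44 and did not pass, at 0.16 (SE 0.163). CREB3 at -0.06 and CREB3L2 at 0.17 did not pass either, and ATF6B and CREB3L1 had at most 5 counts in a library and were not tested. The level of a factor's transcript was measured here, not its activity.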

How the data were processed

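RNA from A549 cells was profiled in 4 libraries labelled siAPEX1 and 4 labelled siCTRL, grouped by title. The authors trimmed reads with Cutadapt, aligned them to GRCh38 with STAR 2.5.3a and counted reads per Ensembl gene with its GeneCounts option, which leaves out reads that map to several places or genes. The deposited values are raw counts, without normalization. The annotation release and the strand setting are not given in the sources used here. Reads where a gene overlaps one on the other strand may thus be left out or counted for either gene. Of 58302 identifiers, 57532 matched GENCODE 44.

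Counts were tested with edgeR 4.0.16 (R 4.3.3; TMM factors, filterByExpr at its defaults, a count of 10 and a total of 15, quasi-likelihood test, Benjamini-Hochberg adjustment over 5368 genes). A gene was called at an adjusted p of at most 0.05. CPM values are counts per 1000000 counts of the TMM-scaled library size. Log2 fold changes are those of the quasi-likelihood fit at its default prior count. A prior count of 2 was used only for the log2 levels behind the replicate correlations and the GC and length offset. The kept genes held 97.5% to 98.1% of each library's counts. The common coefficient of variation between replicates was 0.0832. Depth limits genes of few counts, and intervals cover counting error only. Paralog shares were compared by exact permutation over 70 labelings. Alternatives were other scaling factors, DESeq2 1.42.0, other filters, a replicate block, leaving out each library, and, added after the data were seen, TMM factors from protein-coding genes and a GC and length offset. The fit was tested on simulated data.

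The members, lists and tests were chosen with earlier results of these data known. Values in every library are given for called genes (at most 5 per role), the gene with the most counts in each role and paralogs whose share is described. Of other pathway genes, those called with a log2 change of at least 1 and the listed transcription factors are named. The other called pathway genes, hosted miRNA genes and genes in counts of 5 or fewer were named after their values were seen. Same-numbered replicates were not paired: their deviations from the group means correlated at -0.0373 to -0.00348.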

Additional observations from a re-analysis of the deposited data

Results flagged for a closer look

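In 5 of the 94 groups of 4 libraries checked, 1 library stood apart from the other 3 by more than Dixon's critical value for 4 samples allows, and chance alone flags about 1 in 20 groups. COPG1 in siCTRL replicate 1 was at 16.6 CPM, with the other siCTRL libraries at 20.3 to 20.5. COPZ1 in siCTRL replicate 1 was at 22.1 CPM, with the others near 19.9. ARF4 in siAPEX1 replicate 2 was at 16.2 CPM, with the others at 27.0 to 28.0. TMED2 in siAPEX1 replicate 1 was at 43.6 CPM, with the others at 37.3 to 38.2. The share of SEC23A among SEC23 counts in siCTRL replicate 1 was 48.1%, with the others at 57.1% to 58.1%. The gaps in COPG1, COPZ1 and TMED2 were a few CPM wide and stand out because the other 3 libraries lay close together.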

How the results depend on the processing

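No member past the test changed direction in any of the 17 alternative fits. The 14 lower genes became 24 with library size as the only scaling, where the median of all genes moved to -0.34 and 36.2% of all genes were lower. They became 9 with DESeq2, 2 with a log2 change of at least 1 required, and 9 to 15 when each library was left out in turn. Of all genes tested, 10.1% were lower with DESeq2 and 12.2% to 14.8% with a library left out. The 1 higher gene became 2 with the GC and length offset, 0 with a log2 change of at least 1 and 1 to 2 with a library left out. Of the other pathway genes, the 6 lower became 18 with library size alone, 2 with DESeq2, 2 with at least 10 counts in every library and 3 to 6 with a library left out, and the 4 higher became 2 with library size alone, DESeq2, no filter, or the GC and length offset, and 3 to 4 with a library left out.

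With library size alone the medians were -0.45 for COPII, -0.98 for COPI and -0.80 for the cargo receptors, which lie 0.11, 0.64 and 0.46 below the median of all genes, as under TMM. A change of scaling factors shifts all genes nearly alike, so these distances could hardly move and are no test of the medians. The COPI median was -0.46 with at least 10 counts in every library, -0.32 with the GC and length offset and -0.73 to -0.47 with a library left out. The receptor median was -0.55 without a filter, -0.36 with the offset and -0.52 to -0.35 with a library left out. The COPII median was -0.18 to -0.04 with a library left out. With the replicate number as a block 13 members were lower, COPE being lost, and the numbers did not pair the samples. The causes of these changes were not tested. KDELR3, COPG1 and COPE had too few counts for the filter of at least 10 in every library.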
